A study of Citrus maxima and Citrus sinensis with 8 samples.

Results

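The genes described here are those of ethylene synthesis, perception and signalling together with the AP2/ERF transcription factors, in root tips of 2 citrus species with and without aluminum (Al). They were taken by words in the gene descriptions that the deposited tables carry: ethylene, 1-aminocyclopropane, ACC oxidase, ACC synthase, a word starting with AP2, or the word ERF. The rule took 91 of the 30151 genes listed. Only 43.0% of the genes have a description, so a gene of the pathway without one was missed. By their descriptions the genes were 3 ACC synthases, 3 ACC oxidases, 7 ACC oxidase homologs, 2 genes whose description stops after the name of the substrate, 10 genes of perception and signalling, 62 AP2/ERF factors and 3 ethylene-induced esterases. The remaining match, Cs3g22800, is a carboxymethylenebutenolidase homolog that was matched inside the word methylene and does not belong to the pathway. Its values were 12.2 and 16.8 FPKM in +Al C. grandis, against 10.7 and 11.6 FPKM in its control, and 6.18 and 4.72 FPKM in +Al C. sinensis, against 6.99 and 8.21 FPKM in its control. Taking it out changed no count of calls below.

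There were 4 groups, each with 2 libraries: 'Shatian pummelo' (C. grandis, labelled Al-intolerant) with 1 mM or 0 mM Al, and 'Xuegan' (C. sinensis, labelled Al-tolerant) with 1 mM or 0 mM Al. The Al was given as AlCl3 in the nutrient solution of sand-grown seedlings for 18 weeks, and the groups with 0 mM are called control. Each library was made from the root tips of 5 pooled seedlings, so the spread between libraries is that between such pools, with 2 pools in a group. The p-values below draw on this spread and on a spread that the test estimates over all genes. Reads of both species were mapped to the genome of C. sinensis, so levels were not tested between the species, and only their responses to Al were.

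Ethylene is a gaseous hormone made from methionine through S-adenosylmethionine. ACC synthase turns S-adenosylmethionine into 1-aminocyclopropane-1-carboxylate (ACC), usually the limiting step, and ACC oxidase turns ACC into ethylene. In Arabidopsis the receptors hold the pathway off through the kinase CTR1 when no ethylene is bound. With ethylene bound, EIN2 passes the signal to the transcription factors EIN3 and EIL1, which switch on genes for ERF factors. The AP2/ERF family as a whole is larger than the ethylene pathway, since it also holds dehydration-responsive factors, factors of flower and embryo development, and factors that carry a B3 domain. In roots ethylene is known for restraining elongation and promoting root hairs.

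FPKM, the number of sequenced fragments scaled to the length of the transcript and to the depth of the library, corrects for gene length, so levels of different genes can be set side by side. Averaged over the 8 libraries, 4 of the 91 genes were at 100 FPKM or more, 38 between 10 and 100 FPKM, 25 between 1 and 10 FPKM and 18 above 0 and under 1 FPKM. Another 6, all AP2/ERF factors, were listed at 0 in all 8 libraries, and 3 of these 6 (Cs7g21800, Cs7g21810 and orange1.1t01545) share the description ERF-2 with 2 genes that were detected. Within a species, only genes averaging 1 FPKM or more in at least 1 of its groups were tested. This left 68 of the 91 genes in C. grandis and 67 in C. sinensis, with 63 in both. None of the 19 genes tested in neither species went above 1.50 FPKM in any library. A gene that passed this limit only through the group where it is high had to differ, so the counts below describe the genes tested, not all 91.

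A gene was called where limma, fitted to log2(FPKM + 0.1) of all genes, gave an adjusted p of at most 0.05 and a change of at least 1 on the log2 scale. In +Al C. grandis 3 of the 68 genes rose and 12 fell, where 5.2% of all genes tested rose and 7.25% fell (12.5% in either direction). In +Al C. sinensis 7 of the 67 genes rose and 5 fell, where 4.46% of all genes tested rose and 4.06% fell (8.53% in either direction). AP2/ERF factors were 43 of the 68 genes tested in C. grandis, where they made up 1 of the 3 that rose and 10 of the 12 that fell, and 45 of the 67 in C. sinensis, where they made up 6 of the 7 that rose and all 5 that fell. Of these calls, 4 concern genes that reached 1 FPKM in 1 group of the species only, so that the limit favoured a difference: the rise of orange1.1t05576 in C. grandis and, in C. sinensis, the rise of Cs5g23980 and the falls of Cs4g02210 and Cs6g20790. Without the fold limit, the adjusted p alone gave 4 higher and 14 lower in +Al C. grandis (background 6.6% and 9.33%), and 11 higher and 23 lower in +Al C. sinensis (background 18.6% and 17.6%). The median log2 change of the genes tested was -0.21 in C. grandis and -0.17 in C. sinensis, against -0.014 and -0.0019 over all genes. All +Al libraries were above all control libraries for 18 genes and below them for 27 in C. grandis, where 24.3% and 29.1% of all genes were so placed. The same counts in C. sinensis were 20 above and 38 below, where 35.6% and 35.2% of all genes were so placed.

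The 2 species were set against each other by testing the difference in response, that is the log2 change in C. grandis minus that in C. sinensis, called on the adjusted p alone. Of 72 genes tested, the response of 6 was higher and that of 14 lower in C. grandis, where 6.27% of all genes were higher and 11.3% lower. Of 24 genes called in either species, 12 were called in C. grandis alone, and 7 of these 12 had a response that differed between the species. Another 9 were called in C. sinensis alone, of which 7 had a differing response. The other 3 were called in both species, out of 63 tested in both, where 3.11% of all genes tested in both were called in both. Cs6g20790 and Cs4g02210 fell in both, and Cs5g08360 fell in C. grandis and rose in C. sinensis. The falls of Cs6g20790 and Cs4g02210 in C. sinensis are among the calls that the limit of 1 FPKM favoured. Choosing genes called in C. grandis alone or in C. sinensis alone itself favours a differing response. The share with a differing response among all genes called in this way was not computed. The 7 of 12 and 7 of 9 therefore cannot show whether these genes stand apart from all genes.

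**Figure D1:**
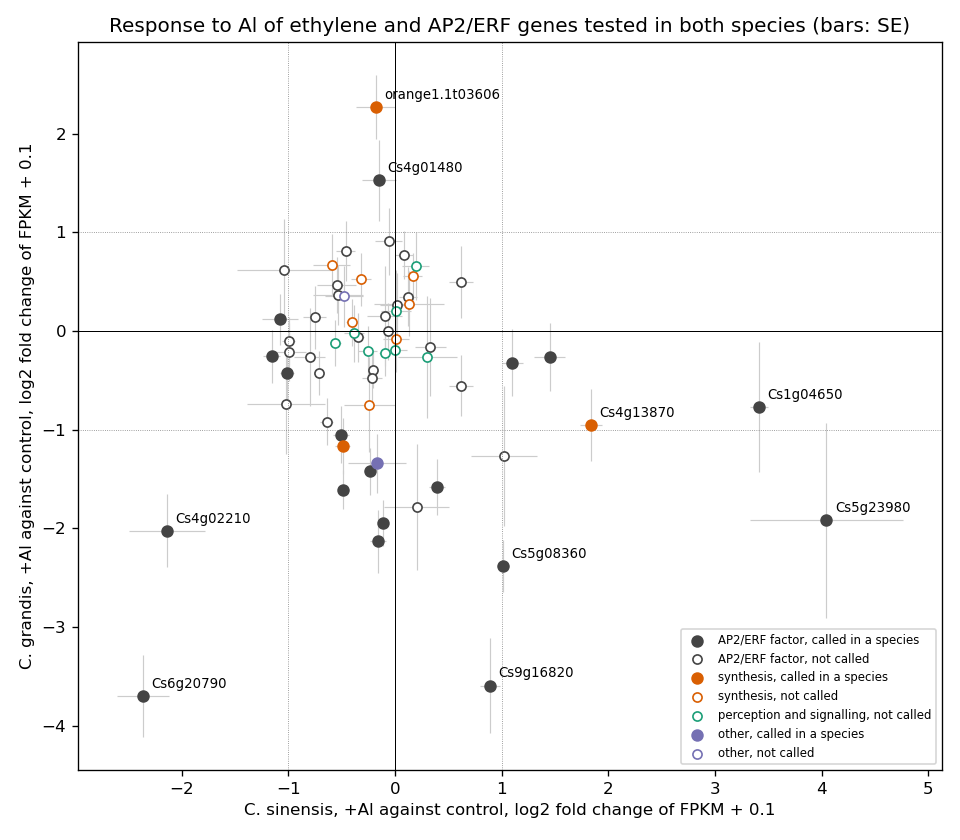
Log2 fold change of FPKM + 0.1, +Al against control, of the 63 genes tested in both species, with C. grandis on the y axis, C. sinensis on the x axis and bars of 1 SE. Filled points are genes called in at least 1 species and open points genes called in neither. The genes of perception and signalling are all open and lie within 1 of zero on both axes, while Cs6g20790 and Cs4g02210 lie low on both axes and Cs5g08360 and Cs9g16820 lie low in C. grandis and to the right in C. sinensis.

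Library 1 of +Al C. grandis stood apart from the other libraries. It had the lowest relative depth (0.706, with the deepest library at 1) and the lowest sum of FPKM (713378, against 795854 to 859570 in the other 7 libraries). For 55 of the 68 genes (80.9%) it was below library 2 of the same group, and so it was for 84.1% of all genes tested, with a median log2 difference of -0.44 for the 68 genes. Without it 3 genes rose and 12 fell in +Al C. grandis, and 10 of the 12 and 1 of the 3 were the ones called with it. The median change of the genes tested then became 0.02, with the median of all genes at 0.19. Dividing the FPKM of each library by a median ratio factor and leaving this library out gave 4 that rose and 13 that fell, 11 of which were among the 12. In the control of C. grandis and in both groups of C. sinensis, the median log2 difference between the libraries was between 0.0020 and 0.11 for the genes tested in that species.

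Ethylene synthesis was represented by 15 genes named for ACC enzymes, 7 of them homologs of ACC oxidase that may not make ethylene. Of 13 tested in C. grandis 2 rose and 1 fell, where 5.2% and 7.25% of all genes did. Both that rose are ACC oxidase homologs, and the 1 that fell is an ACC synthase. Of 12 tested in C. sinensis 1 rose and 0 fell, where 4.46% and 4.06% of all genes did. At an unadjusted p under 0.05, limma gave 4 higher and 2 lower in C. grandis (11.7% and 14.7% of all genes), and 2 higher and 4 lower in C. sinensis (23.8% and 22.8% of all genes). The ACC synthase Cs5g03060 was the highest ACC synthase in these root tips. It was at 14.3 and 22.7 FPKM in +Al C. grandis, against 42.6 and 38.7 FPKM in its control, and at 18.9 and 18.7 FPKM in +Al C. sinensis, against 27.3 and 25.6 FPKM in its control. Both +Al libraries were below both control libraries in each species. In C. grandis it fell by 1.17 on the log2 scale (SE 0.28, adjusted p = 0.0027 by limma). In C. sinensis the log2 change of -0.49 had an adjusted p of 0.0057 and did not reach the fold limit. The difference between the species, -0.68 (SE 0.30), had an adjusted p of 0.16. It passed the test after rescaling (adjusted p = 0.016), without +Al C. grandis library 2 (-1.01, adjusted p = 0.0038) and after rescaling without either +Al C. grandis library (adjusted p = 0.013 and 0.0056), so whether the responses differ depends on the processing. The fall in C. grandis was lost without +Al library 1 (log2 -0.83) and without control library 1 or 2 (log2 -1.10 and -1.24).

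The other ACC synthases, orange1.1t00414 and orange1.1t00416, lie close together in the list of gene identifiers and may share reads. They were near the floor in C. grandis, where no library passed 0.484 FPKM, and were not tested there. In C. sinensis orange1.1t00414 was at 9.81 and 6.65 FPKM in +Al roots, against 11.6 and 10.8 FPKM in control roots, and orange1.1t00416 was at 2.08 and 2.44 FPKM in +Al roots, against 0.756 and 1.28 FPKM in control roots. In neither did the change pass the test (adjusted p = 0.12 and 0.054 by limma), although the groups did not overlap in either and the directions were opposite.

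The clearest rise among the synthesis genes in C. sinensis was that of Cs4g13870, whose description ends after 1-aminocyclopropane-1-carboxylate. Its functional terms in the files are those of an oxidoreductase acting on paired donors, the class of ACC oxidase, but the enzyme itself is not named. It was at 3.28 and 4.44 FPKM in +Al C. grandis, against 9.56 and 5.84 FPKM in its control, and at 64.3 and 53.7 FPKM in +Al C. sinensis, against 16.3 and 16.4 FPKM in its control. The groups did not overlap in either species and moved in opposite directions. The change in C. grandis did not pass the test (log2 -0.95, SE 0.37, adjusted p = 0.076), and in C. sinensis it rose (log2 1.84, SE 0.10, adjusted p = 0.00027, a 3.57-fold change by limma). The difference in response was -2.79 (SE 0.37, adjusted p = 0.0027), and both calls held with each library left out in turn. The other gene with a shortened description, Cs4g13490, carries terms of a carbon-sulfur lyase as the ACC synthases do. It lay between 1.19 and 2.95 FPKM in all 8 libraries and was not called.

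None of the 3 genes named plainly as ACC oxidases was called in either species, and none differed in response (at an unadjusted p under 0.05, limma gave 1 in each species and 0 for the difference, where 26.4%, 46.6% and 32.3% of all genes passed in C. grandis, in C. sinensis and for the difference). Cs3g20140, ACC oxidase 5 by its description and the highest of the synthesis genes, was at 88.6 and 111 FPKM in +Al C. grandis, against 66.5 and 67.9 FPKM in its control. In C. sinensis it was at 68.8 and 65.8 FPKM in +Al roots, against 65.0 and 55.4 FPKM in control roots. The log2 changes were 0.56 (SE 0.24, adjusted p = 0.11) and 0.17 (SE 0.089, adjusted p = 0.20 by limma). Its difference in response passed the test without +Al C. grandis library 1 only (0.55), where the median difference of all genes became 0.21. Cs2g02500, ACC oxidase 1, overlapped between the groups of C. grandis, with 72.5 and 98.9 FPKM in +Al roots, against 80.2 and 79.0 FPKM in control roots. In C. sinensis it was at 40.4 and 39.5 FPKM in +Al roots, against 52.5 and 53.4 FPKM in control roots, a log2 change of -0.41 that passed the p limit (adjusted p = 0.0045) and not the fold limit.

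The ACC oxidase homologs are dioxygenases named for their resemblance to ACC oxidase, and the name does not mean that they make ethylene. The homolog orange1.1t03606 gave the largest rise above 5 FPKM of any gene named for an ACC enzyme. It was at 18.7 and 28.8 FPKM in +Al C. grandis, against 5.15 and 4.35 FPKM in its control, and at 2.61 and 2.79 FPKM in +Al C. sinensis, against 3.09 and 3.06 FPKM in its control. Its rise in C. grandis was 2.27 on the log2 scale (SE 0.32, adjusted p = 7.8e-07, a 4.83-fold change), against -0.18 in C. sinensis (adjusted p = 0.47 by limma). The difference of 2.45 (SE 0.34) had an adjusted p of 0.0036, and both calls held with each library left out. Its near neighbour by identifier, orange1.1t03609, was at 1.49 and 3.27 FPKM in +Al C. grandis, against 0.764 and 1.19 FPKM in its control, and was not called (adjusted p = 0.20).

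A further pair of homologs, Cs8g12810 and Cs8g12820, may also share reads. Cs8g12810 was at 12.4 and 19.1 FPKM in +Al C. grandis, against 10.2 and 9.11 FPKM in its control, and at 10.8 and 7.84 FPKM in +Al C. sinensis, against 13.1 and 14.8 FPKM in its control. It was called in neither species, but its response differed between them (1.26, SE 0.35, adjusted p = 0.046 by limma). That call was lost when any library other than +Al C. grandis 1 was left out (adjusted p 0.0546 to 0.19), and also without the filter on low values (adjusted p = 0.063) and with a pseudocount of 0.01 (adjusted p = 0.0535). Cs8g12820, the highest of the homologs, had a difference of 0.85 in the same direction that did not pass the test (adjusted p = 0.11). It passed after rescaling (adjusted p = 0.013), without +Al C. grandis library 1 (1.20, adjusted p = 0.0070) and after rescaling without either +Al C. grandis library (adjusted p = 0.0050 and 0.018). The third homolog called was orange1.1t05576, listed at 0 in all 4 libraries of C. sinensis and in 1 control library of C. grandis. Its other C. grandis values were 2.24 and 1.55 FPKM in +Al roots, against 0.947 FPKM in the remaining control library. It was tested only because its +Al group passed 1 FPKM, and the fitted log2 change of 2.60 (adjusted p = 0.031) depends on the pseudocount. It was lost without +Al library 1, +Al library 2 or control library 2, and after rescaling, without the filter or with all 8 libraries in the fit (adjusted p 0.14 to 0.85).

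Perception and signalling held 10 genes. None of the 8 tested was called in either species, where 12.5% of all genes were called in C. grandis and 8.53% in C. sinensis. None differed in response, where 17.6% of all genes did. At an unadjusted p under 0.05, limma gave 0 genes in C. grandis, 3 in C. sinensis and 0 for the difference. The shares of all genes were 26.4%, 46.6% and 32.3%. With 8 genes tested, the counts of 0 cannot show whether this group responded less than all genes. The log2 changes of these genes ran between -0.26 and 0.66 in C. grandis and between -0.56 and 0.30 in C. sinensis.

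The receptors bind ethylene and repress the pathway when it is absent. The highest of them was Cs5g33560, ethylene response sensor 1, with 66.9 and 100.0 FPKM in +Al C. grandis, against 94.5 and 95.9 FPKM in its control, and 46.0 and 48.9 FPKM in +Al C. sinensis, against 50.0 and 51.1 FPKM in its control. Cs5g14390, ethylene response 1, followed with 46.4 and 67.8 FPKM in +Al C. grandis, against 67.1 and 62.2 FPKM in its control, and 46.0 and 39.2 FPKM in +Al C. sinensis, against 49.8 and 51.6 FPKM in its control. Both overlapped between the groups of C. grandis, and in C. sinensis both +Al libraries lay below both control libraries by a small margin (log2 -0.09 and -0.26, adjusted p = 0.30 and 0.078 by limma). The third named receptor, Cs8g12880 (ethylene response 3), lay between 10.4 and 15.0 FPKM in all 8 libraries. The genes described only as ethylene receptor were lower, Cs9g07000 between 2.43 and 6.83 FPKM and Cs5g31090 between 0.972 and 2.20 FPKM. Among the receptors, the order of the mean levels over the 8 libraries was Cs5g33560, Cs5g14390, Cs8g12880, Cs9g07000 and Cs5g31090. The ranges of Cs5g33560 and Cs5g14390 overlapped, and those of the other neighbours in that order did not.

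EIN2 and EIN3 carry the signal from the receptors to the nucleus. Cs6g11930, EIN2-like, was at 18.4 and 30.6 FPKM in +Al C. grandis, against 24.1 and 24.1 FPKM in its control, and at 21.5 and 19.0 FPKM in +Al C. sinensis, against 25.2 and 27.6 FPKM in its control. Cs3g06930, an EIN3-like 1 protein and the highest signalling gene, was at 84.4 and 118 FPKM in +Al C. grandis, against 107 and 110.5 FPKM in its control, and at 54.9 and 53.6 FPKM in +Al C. sinensis, against 79.7 and 80.5 FPKM in its control. In C. grandis the groups of both genes overlapped, and in C. sinensis both genes were lower in both +Al libraries. The log2 changes in C. sinensis, -0.38 for the EIN2-like gene (SE 0.095, adjusted p = 0.028) and -0.56 for the EIN3-like gene (SE 0.053, adjusted p = 0.0012 by limma), passed the p limit and not the fold limit. Their differences in response, 0.36 and 0.44, did not pass the test (adjusted p = 0.48 and 0.22). Without +Al C. grandis library 1, both did (adjusted p = 0.016 and 0.0030), as they did with rescaling added (adjusted p = 0.040 and 0.034), and that of Cs3g06930 also did after rescaling with all libraries (adjusted p = 0.035). The EIN3 family gene orange1.1t04381 was at 6.83 and 10.8 FPKM in +Al C. grandis, against 5.92 and 4.97 FPKM in its control, and was not called (adjusted p = 0.23). Without +Al C. grandis library 1 its difference in response passed the test (0.79), and without +Al C. grandis library 2 so did that of the receptor Cs5g33560 (-0.42). The median difference of all genes then became 0.21 and -0.19. Neither gene passed after rescaling, with all libraries or with either of these left out. The REVERSION-TO-ETHYLENE SENSITIVITY1-like gene Cs4g18570 and a second EIN3-like 1 gene, Cs3g06940, stayed under the limit for testing.

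**Figure D2:**
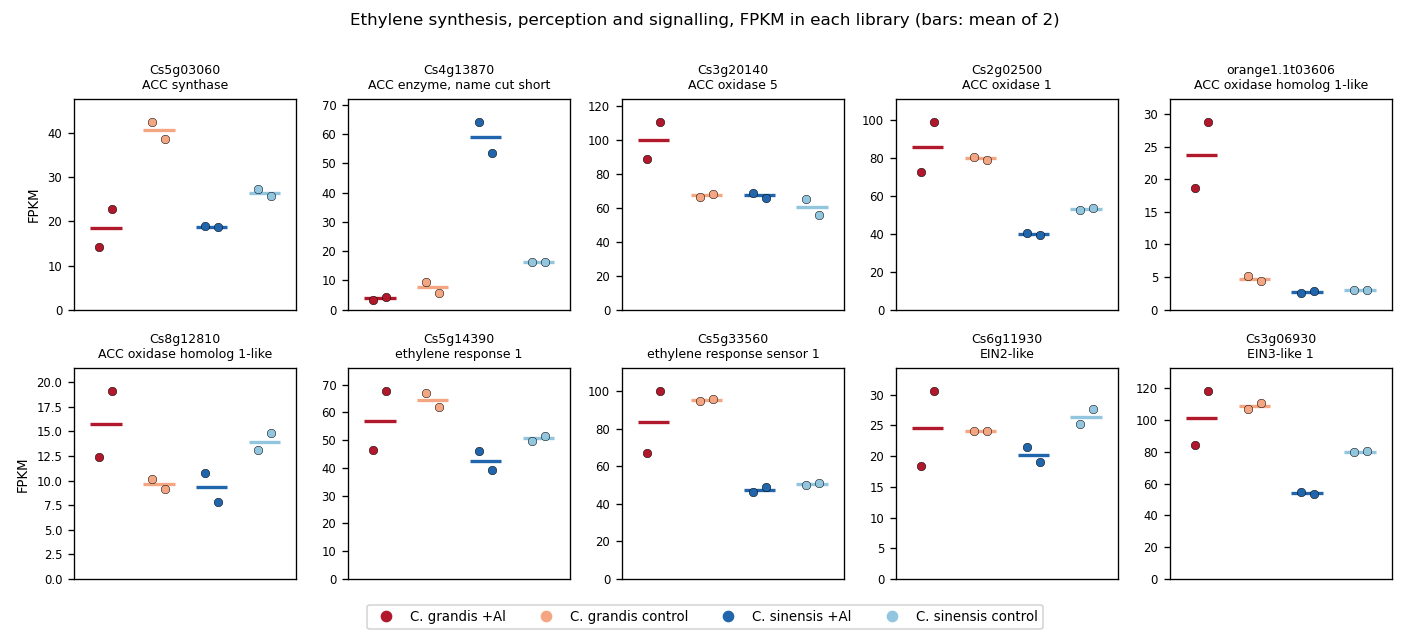
FPKM in each of the 8 libraries for 6 genes named for ACC enzymes and 4 genes of perception and signalling, 1 panel per gene, with points for libraries and bars for the mean of the 2 libraries of a group. The panels of Cs5g03060 (lower in +Al C. grandis), Cs4g13870 (higher in +Al C. sinensis) and orange1.1t03606 (higher in +Al C. grandis) show groups that lie apart, and in the receptor and EIN2-like panels the groups of C. grandis overlap.

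The AP2/ERF factors bind DNA through the AP2 domain, and members of the ERF branch act as activators or as repressors. Of 43 tested in C. grandis, 1 rose and 10 fell, beside 5.2% and 7.25% of all genes. The most abundant of those that fell was Cs4g07040, at 170 and 215 FPKM in +Al C. grandis, against 635 and 535 FPKM in its control. It was at 288 and 299.8 FPKM in +Al C. sinensis, against 401 and 421 FPKM in its control, so both +Al libraries were below both control libraries in each species. It fell by 1.61 on the log2 scale in C. grandis (SE 0.20, adjusted p = 4.5e-08), and the change in C. sinensis, -0.48 (adjusted p = 0.0017 by limma), was under the fold limit. The response differed by -1.12 (SE 0.19, adjusted p = 0.0079), a call lost without +Al library 2, control library 1 or control library 2 of C. sinensis (adjusted p 0.0530 to 0.0623).

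Cs5g33540, described as ethylene responsive transcription factor 2b, was at 49.1 and 54.1 FPKM in +Al C. grandis, against 203 and 195 FPKM in its control. In C. sinensis it was at 180.2 and 176 FPKM in +Al roots, against 196 and 190.1 FPKM in control roots. The 2 libraries of +Al C. grandis lay far below the other 6. In C. grandis the gene fell by 1.95 (SE 0.23, adjusted p = 1.6e-08, 3.85-fold), in C. sinensis the log2 change was -0.12 (adjusted p = 0.11), and the difference in response was -1.83 (SE 0.14, adjusted p = 0.00047 by limma). Both calls held with each library left out.

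Cs5g08360 gave opposite calls in the species. It was at 14.2 and 13.9 FPKM in +Al C. grandis, against 74.5 and 73.0 FPKM in its control, and at 80.8 and 77.7 FPKM in +Al C. sinensis, against 39.6 and 39.0 FPKM in its control. The 2 libraries of every group lay close together and no groups of a species overlapped. It fell by 2.38 in C. grandis (SE 0.27, adjusted p = 5.5e-09) and rose by 1.01 in C. sinensis (SE 0.057, adjusted p = 0.00028), and the responses differed by -3.39 (SE 0.16, adjusted p = 0.0001 by limma). The rise in C. sinensis stands at the fold limit, and went below it without +Al library 1 (0.98), without control library 2 (0.998) and with a pseudocount of 1 (0.99), always with an adjusted p of 0.014 or less. The fall in C. grandis and the difference held with each library left out.

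Cs9g16820, ERF025-like, had the same pattern with a larger spread. It was at 0.556 and 4.85 FPKM in +Al C. grandis, against 23.9 and 19.7 FPKM in its control, and at 30.5 and 27.9 FPKM in +Al C. sinensis, against 14.8 and 16.6 FPKM in its control. It fell in C. grandis (log2 -3.59, SE 0.48, adjusted p = 2.6e-07), and the change of 0.89 in C. sinensis (adjusted p = 0.0018 by limma) was under the fold limit. Because the +Al C. grandis libraries differ, the log2 change in C. grandis was -2.14 without +Al library 1 and -5.05 without +Al library 2, and was called with each library left out. The difference in response, -4.49 (SE 1.1, adjusted p = 0.026 by limma), was lost without any 1 of the 4 C. sinensis libraries or the 2 control libraries of C. grandis. Its value then stayed between -4.62 and -4.35.

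Cs6g20790 and Cs4g02210, both described as AP2 domain-containing, are the factors that fell in both species. In C. sinensis both averaged 1 FPKM or more only in the control group, so the limit for testing favoured a fall there. Their calls there are given with the values and not as a test of a fall in both species. Cs6g20790 was at 1.94 and 0.636 FPKM in +Al C. grandis, against 16.5 and 15.2 FPKM in its control, and at 0.784 and 1.06 FPKM in +Al C. sinensis, against 4.85 and 5.36 FPKM in its control. It fell by 3.70 in C. grandis (SE 0.41, adjusted p = 5.1e-09, 13.0-fold) and by 2.36 in C. sinensis (SE 0.24, adjusted p = 0.0016, 5.14-fold by limma), and both held with each library left out. Cs4g02210 was at 1.92 and 3.78 FPKM in +Al C. grandis, against 11.7 and 10.9 FPKM in its control, and at 1.02 and 0.789 FPKM in +Al C. sinensis, against 5.82 and 3.16 FPKM in its control. It fell by 2.03 in C. grandis (SE 0.37, adjusted p = 6.9e-05) and by 2.14 in C. sinensis (SE 0.36, adjusted p = 0.0078). Its calls were lost without control library 1 in C. grandis (adjusted p = 0.067), and without +Al library 2 (adjusted p = 0.063) or control library 1 (adjusted p = 0.0504) in C. sinensis. The responses of the 2 genes were not shown to differ between the species (-1.34, SE 0.62, adjusted p = 0.18, and 0.11, SE 0.55, adjusted p = 0.91). Without +Al C. grandis library 1 the difference of Cs6g20790 passed the test (adjusted p = 0.0069).

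Another pair of factors fell in C. grandis with a response that differed. Cs3g19420 was at 5.97 and 13.7 FPKM in +Al C. grandis, against 43.2 and 36.8 FPKM in its control, and at 36.6 and 35.2 FPKM in +Al C. sinensis, against 38.1 and 42.3 FPKM in its control. Cs2g05640, ERF domain protein 12, was at 11.9 and 16.4 FPKM in +Al C. grandis, against 42.6 and 41.5 FPKM in its control. In C. sinensis, in contrast, Cs2g05640 was at 35.5 and 35.6 FPKM in +Al roots, against 28.5 and 25.8 FPKM in control roots. In both genes the +Al libraries of C. grandis were the lowest of all 8. Cs3g19420 fell by 2.13 (SE 0.32, adjusted p = 2.2e-06) and Cs2g05640 fell by 1.58 (SE 0.28, adjusted p = 4.9e-05 by limma). The fall of Cs2g05640 was lost without control library 1 or 2, although the log2 change stayed at -1.56 and -1.60. Their differences in response were both -1.97 (SE 0.47 and 0.24, adjusted p = 0.025 and 0.0021). That of Cs2g05640 held with each library left out, and that of Cs3g19420 was lost without any 1 of the 4 C. sinensis libraries or the 2 control libraries of C. grandis (adjusted p 0.075 to 0.12).

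The other 2 factors that fell in C. grandis were named after their values were seen. orange1.1t04058, of the AP2 domain class, was at 48.3 and 65.0 FPKM in +Al C. grandis, against 145 and 156 FPKM in its control (log2 -1.42, SE 0.24, adjusted p = 1.5e-05 by limma), and its response differed from that in C. sinensis by -1.18 (adjusted p = 0.0084). The difference was lost without any 1 of the 4 C. sinensis libraries (adjusted p 0.0536 to 0.0599). orange1.1t00506 was at 14.7 and 22.3 FPKM in +Al C. grandis, against 42.2 and 33.4 FPKM in its control (log2 -1.05, SE 0.29, adjusted p = 0.0076). This call was lost without +Al library 1 (log2 -0.75) or either control library, with an adjusted p of up to 0.54.

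The factor that rose in C. grandis was Cs4g01480, which carries an AP2/ERF and a B3 domain. It was at 4.70 and 10.1 FPKM in +Al C. grandis, against 2.76 and 1.95 FPKM in its control, and at 3.47 and 3.26 FPKM in +Al C. sinensis, against 3.83 and 3.66 FPKM in its control. The log2 change was 1.53 (SE 0.41, adjusted p = 0.0066 by limma). The call was lost when any of the 4 C. grandis libraries was left out (log2 0.99 to 2.07). It was also lost without the filter on low values (adjusted p = 0.073). After rescaling it was lost without +Al library 2 (log2 1.20) but held without +Al library 1. The difference in response of 1.68 (SE 0.51) did not pass the test (adjusted p = 0.058 by limma). It passed after rescaling (adjusted p = 0.015) and at 5 FPKM or more (adjusted p = 0.0499). It also passed without +Al C. grandis library 1 (2.22), and after rescaling without either +Al C. grandis library (2.02 and 1.33). Of the genes described as AP2/B3-like, Cs1g22760 lay between 17.2 and 28.2 FPKM in all 8 libraries. The AP2/B3-like gene orange1.1t04769 was at 10.4 and 26.2 FPKM in +Al C. grandis, against 9.67 and 7.92 FPKM in its control. Neither was called in either species. The description alone does not show that they carry an AP2 domain, and this was not tested.

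**Figure D3:**
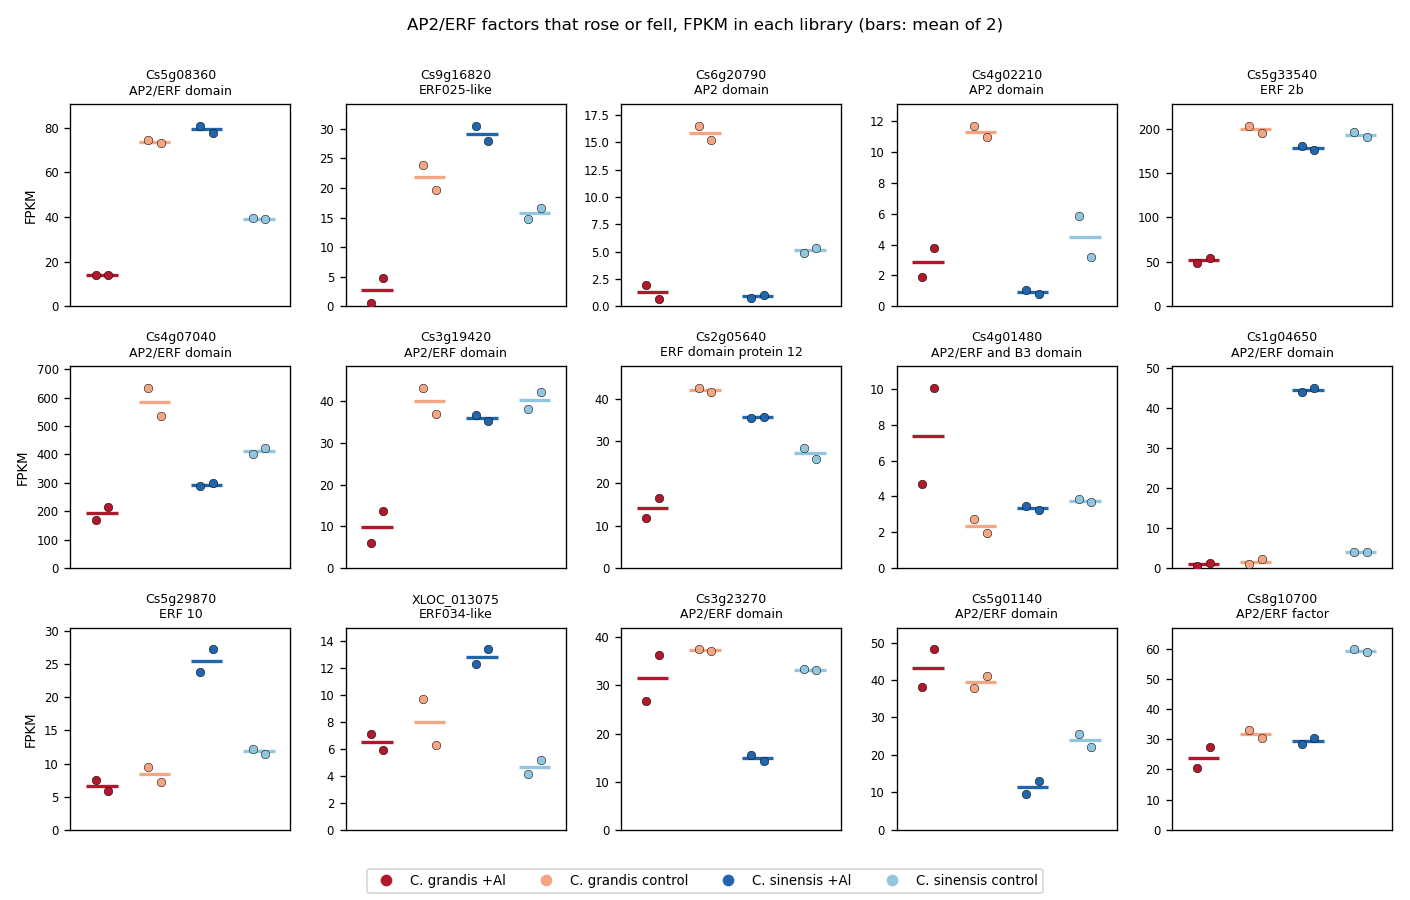
FPKM in each of the 8 libraries for 15 AP2/ERF factors called in a species, 1 panel per gene, with points for libraries and bars for the mean of the 2 libraries of a group. In the upper row the libraries of +Al C. grandis lie far below those of its control, and in the panel of Cs1g04650 the 2 libraries of +Al C. sinensis, at 43.9 and 45.0 FPKM, lie apart from the other 6.

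Of 45 AP2/ERF factors tested in C. sinensis, 6 rose and 5 fell, beside 4.46% and 4.06% of all genes. The largest rise of a gene detected in all 4 libraries was that of Cs1g04650. It was low in every library of C. grandis, at 0.464 and 1.38 FPKM in +Al roots, against 0.961 and 2.19 FPKM in control roots. In C. sinensis it was at 43.9 and 45.0 FPKM in +Al roots, against 4.12 and 4.06 FPKM in control roots. The rise in C. sinensis was 3.41 on the log2 scale (SE 0.083, adjusted p = 9.1e-05, 10.6-fold by limma) and held with each library left out, with a lowest value of 3.16 over all alternatives. The change in C. grandis did not pass the test (log2 -0.77, SE 0.66, adjusted p = 0.51). The responses differed by -4.18 (SE 0.69, adjusted p = 0.0068), which missed the limit without +Al library 2 or either control library of C. sinensis (adjusted p 0.0524 to 0.0552). The gene Cs1g04680, close to it by identifier and with the same description, did not pass 0.686 FPKM in any library.

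Cs5g29870, ethylene response factor 10, was at 7.52 and 5.80 FPKM in +Al C. grandis, against 9.52 and 7.20 FPKM in its control, and at 23.8 and 27.2 FPKM in +Al C. sinensis, against 12.2 and 11.5 FPKM in its control. Its rise of 1.1 on the log2 scale in C. sinensis (SE 0.099, adjusted p = 0.0010 by limma) held with each library left out. The difference in response was -1.42 (SE 0.29, adjusted p = 0.015), and was lost without any 1 of the 4 C. sinensis libraries or control library 1 of C. grandis (adjusted p 0.059 to 0.090). The assembled genes XLOC_013075 and XLOC_011354 are both named ERF034-like. XLOC_013075 was at 7.12 and 5.90 FPKM in +Al C. grandis, against 9.66 and 6.26 FPKM in its control, and at 12.3 and 13.4 FPKM in +Al C. sinensis, against 4.15 and 5.15 FPKM in its control. XLOC_011354 was at 9.58 and 13.8 FPKM in +Al C. grandis, against 14.8 and 19.4 FPKM in its control, and at 17.9 and 16.1 FPKM in +Al C. sinensis, against 11.8 and 10.3 FPKM in its control. In both genes the libraries of C. sinensis lay apart, with +Al above. XLOC_013075 rose in C. sinensis by 1.45 (SE 0.14, adjusted p = 0.0015), and XLOC_011354 stayed under the fold limit at 0.62 (adjusted p = 0.0098). Their differences in response were -1.71 (SE 0.35, adjusted p = 0.015) and -1.17 (SE 0.32, adjusted p = 0.039). Both were lost without any 1 of the 4 C. sinensis libraries or control library 1 of C. grandis, with an adjusted p of up to 0.092 for XLOC_013075 and 0.17 for XLOC_011354, and that of XLOC_011354 also without control library 2 of C. grandis or without the filter on low values.

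Cs5g19600 had a highest value of 0.601 FPKM in C. grandis, where it was not tested. In C. sinensis it was at 4.61 and 5.73 FPKM in +Al roots, against 2.60 and 1.40 FPKM in control roots, and rose (log2 1.38, SE 0.32, adjusted p = 0.023 by limma). The call was lost without +Al library 1, +Al library 2 or control library 2 and with all 8 libraries in the fit (adjusted p 0.087 to 0.21). Cs5g23980, named after its values were seen, was at 0.710 FPKM and listed at 0 in the +Al libraries of C. grandis, against 0.581 and 1.60 FPKM in its control. In C. sinensis it was at 1.49 and 1.61 FPKM in +Al roots and listed at 0 in both control libraries. It was tested there only because its +Al libraries passed 1 FPKM, so its calls, in C. sinensis and for the difference, are given in the counts and not as results, and no fold is given against a group listed at 0.

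Besides Cs6g20790 and Cs4g02210, 3 factors fell in C. sinensis. Cs3g23270 was at 26.9 and 36.3 FPKM in +Al C. grandis, against 37.5 and 37.1 FPKM in its control, and at 15.6 and 14.2 FPKM in +Al C. sinensis, against 33.4 and 33.3 FPKM in its control. Cs5g01140 was at 38.1 and 48.1 FPKM in +Al C. grandis, against 37.9 and 41.0 FPKM in its control, and at 9.54 and 13.1 FPKM in +Al C. sinensis, against 25.6 and 22.1 FPKM in its control. Cs8g10700 was at 20.4 and 27.5 FPKM in +Al C. grandis, against 33.2 and 30.5 FPKM in its control, and at 28.3 and 30.5 FPKM in +Al C. sinensis, against 59.8 and 58.9 FPKM in its control. All 3 had groups that lay apart in C. sinensis, and none was called in C. grandis. The log2 changes in C. sinensis were -1.15 for Cs3g23270 (SE 0.080, adjusted p = 0.00049), -1.08 for Cs5g01140 (SE 0.17, adjusted p = 0.0063) and -1.01 for Cs8g10700 (SE 0.066, adjusted p = 0.00042 by limma). That of Cs3g23270 held with each library left out. That of Cs5g01140 was lost without +Al library 1 (log2 -0.86) or control library 1 or 2 (adjusted p = 0.076 and 0.055). That of Cs8g10700 went below the fold limit without +Al library 1 (log2 -0.96), after rescaling (log2 -0.99) and with a pseudocount of 1 (log2 -0.99).

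The response of Cs5g01140 was higher in C. grandis by 1.20 (SE 0.28, adjusted p = 0.023) and that of Cs3g23270 by 0.90 (SE 0.23, adjusted p = 0.035 by limma). Both were lost without control library 1 or 2 of either species or without +Al C. sinensis library 1, that of Cs3g23270 also without +Al C. sinensis library 2 (adjusted p 0.071 to 0.12 for Cs5g01140 and 0.099 to 0.14 for Cs3g23270). For Cs8g10700 the difference of 0.59 did not pass (adjusted p = 0.12), but it did after rescaling (adjusted p = 0.011), without +Al C. grandis library 1 (0.80, adjusted p = 0.0063) and after rescaling without either +Al C. grandis library (adjusted p = 0.014 and 0.020). The AP2 domain gene orange1.1t02314 was called in neither species and had a differing response (1.27, SE 0.29, adjusted p = 0.021). It was at 17.2 and 25.5 FPKM in +Al C. grandis, against 12.6 and 11.2 FPKM in its control, and at 11.9 and 13.0 FPKM in +Al C. sinensis, against 17.3 and 16.9 FPKM in its control, so the groups lay apart in opposite directions. This call was lost without any 1 of the 4 C. sinensis libraries or the 2 control libraries of C. grandis (adjusted p 0.061 to 0.10). Cs2g14570, ERF114-like, and XLOC_012134, ERF 4-like, complete the 20 genes with a differing response, at 0.89 (adjusted p = 0.035) and -1.99 (adjusted p = 0.030). Both were named after their values were seen and were lost when any C. sinensis library or any control library of C. grandis was left out (adjusted p of up to 0.15 and 0.11).

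**Figure D4:**
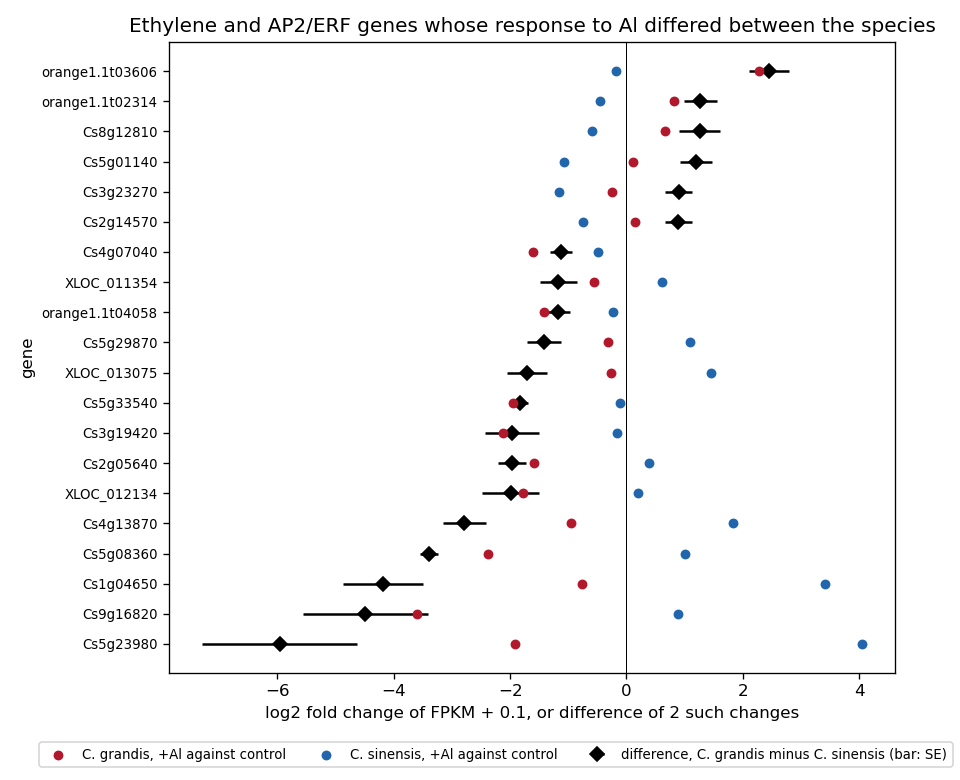
The 20 genes whose response to Al differed between the species, in order of the difference, C. grandis minus C. sinensis (diamonds, with bars of 1 SE), with the log2 fold change of FPKM + 0.1 in C. grandis (red points) and in C. sinensis (blue points). The upper 6 genes lie right of zero, led by orange1.1t03606 at 2.45, and the lower 14 lie left of zero. The point of Cs5g23980 depends on the pseudocount, since both control libraries of C. sinensis were listed at 0.

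The highest gene of all 91 was not called. This was Cs1g16690, described as ethylene-responsive transcription factor, with 375 and 509 FPKM in +Al C. grandis, against 570.4 and 577 FPKM in its control, and 447 and 450.1 FPKM in +Al C. sinensis, against 522 and 513 FPKM in its control. All +Al libraries lay below their controls (log2 -0.39, adjusted p = 0.17 in C. grandis, and log2 -0.21, adjusted p = 0.016 in C. sinensis by limma). Cs3g18470, an ethylene-responsive element binding factor, was at 118 and 190.3 FPKM in +Al C. grandis, against 204 and 199.6 FPKM in its control, and at 87.6 and 87.7 FPKM in +Al C. sinensis, against 145 and 144 FPKM in its control. Its log2 change in C. sinensis, -0.72, had an adjusted p of 0.00043 and was under the fold limit. Just under the limit in C. sinensis lay Cs5g26770, named for RAP2-11, with 22.6 and 22.4 FPKM in +Al roots, against 45.1 and 44.8 FPKM in control roots (log2 -0.995, adjusted p = 0.00037). Cs3g18470 and Cs5g26770 were chosen after their values were seen.

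The 3 esterases described as ethylene-induced, Cs1g23160, Cs1g23170 and Cs1g23200, stand near each other by identifier and share a description, so their reads may be split between them. Cs1g23200 was at 8.85 and 14.1 FPKM in +Al C. grandis, against 28.6 and 28.3 FPKM in its control, and at 1.33 and 1.43 FPKM in +Al C. sinensis, against 1.59 and 1.53 FPKM in its control. In C. grandis all 3 had both +Al libraries below both control libraries, as did 29.1% of all genes tested there. With reads that may be shared, they may not be 3 separate cases. Cs1g23200 fell by 1.34 (SE 0.30, adjusted p = 0.0010 by limma). The call was lost without control library 1 or 2, although the log2 change stayed at -1.33 and -1.35. Cs1g23160 passed the p limit and not the fold limit (log2 -0.98, adjusted p = 0.023), and Cs1g23170 passed neither (log2 -0.59, adjusted p = 0.24).

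Neighbouring steps of the pathway were followed in 14 genes taken by other words, 13 of which were tested in each species. In +Al C. grandis 0 rose and 2 fell, where 5.2% and 7.25% of all genes did. In +Al C. sinensis 0 rose and 0 fell, where 4.46% and 4.06% of all genes did. The response of 5 was lower in C. grandis and that of 0 higher, where 11.3% of all genes were lower and 6.27% higher. At an unadjusted p under 0.05, limma gave 1 higher and 4 lower in +Al C. grandis (11.7% and 14.7% of all genes). In +Al C. sinensis it gave 4 higher and 3 lower (23.8% and 22.8% of all genes). For the difference it gave 1 higher and 5 lower, where 13.8% of all genes were higher and 18.5% lower. S-adenosylmethionine synthetase supplies the substrate of ACC synthase, and of many methylation reactions. Cs9g01410 was at 102 and 94.9 FPKM in +Al C. grandis, against 231 and 222 FPKM in its control, and at 307 and 312 FPKM in +Al C. sinensis, against 339.5 and 320.4 FPKM in its control. It fell by 1.20 in C. grandis (SE 0.22, adjusted p = 5.6e-05 by limma), a call lost without control library 1 (adjusted p = 0.063) and, after rescaling, without +Al library 2 (log2 -0.94). The responses of Cs6g01310 (-1.22, adjusted p = 0.0031), orange1.1t01755 (-1.11, adjusted p = 0.0018) and Cs9g01410 (-1.11, adjusted p = 0.0020) were lower in C. grandis, and all held with each library left out.

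The remaining gene of these that fell was the CRT/DRE binding factor Cs9g16810, the next identifier to the ERF025-like gene Cs9g16820 described above. It was at 3.28 and 10.5 FPKM in +Al C. grandis, against 77.7 and 79.9 FPKM in its control, and at 93.1 and 85.5 FPKM in +Al C. sinensis, against 108 and 107 FPKM in its control. CRT/DRE binding factors belong to the AP2/ERF family and are known from Arabidopsis for their part in the cold response. It fell by 3.72 in C. grandis (SE 0.34, adjusted p = 3.4e-11), and the difference in response was -3.45 (SE 0.61, adjusted p = 0.0085 by limma), lost without any 1 of the C. sinensis libraries (adjusted p 0.056 to 0.063). The PTI5-like gene Cs2g05280 had a difference of -0.78 (adjusted p = 0.019), lost without any 1 of the C. sinensis libraries or control library 1 of C. grandis (adjusted p of up to 0.093). The CTR1-like kinase orange1.1t01515 and the EIN3-binding F-box gene Cs7g05390 were not called. In C. sinensis both passed the p limit and not the fold limit. The log2 changes there were -0.52 (adjusted p = 0.043) and 0.26 (adjusted p = 0.028 by limma). The words used also took 2 DREB2A-interacting proteins and an inducer of CBF expression, which are not AP2/ERF factors, and none of these was called.

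Marker genes of other tissues were summed as a check of the samples. Beside the counts of calls below, 5.2% of all genes tested rose and 7.25% fell in C. grandis. In C. sinensis 4.46% rose and 4.06% fell. A list of 22 genes of leaf and green tissue, none of them at 0 in all libraries, summed to 70.8 and 73.9 FPKM in +Al C. grandis, against 57.7 and 56.4 FPKM in its control, and to 43.2 and 43.4 FPKM in +Al C. sinensis, against 59.9 and 60.9 FPKM in its control. The sums lay apart in opposite directions, with 0 of 12 tested called in C. grandis and 1 of 11 that fell in C. sinensis. Of 7 genes of root tip patterning, 1 was listed at 0 throughout, and the list summed to 61.0 and 86.1 FPKM in +Al C. grandis, against 102 and 95.3 FPKM in its control, where 1 of 4 tested fell. In +Al C. sinensis it summed to 58.6 and 55.3 FPKM, against 64.2 and 63.9 FPKM in its control, with 0 of 4 called. Genes of xylem and secondary wall (33 genes, 5 listed at 0 throughout) summed to 711 and 898 FPKM in +Al C. grandis, against 1061 and 1027 FPKM in its control, where 6 of 20 tested fell. In +Al C. sinensis they summed to 1283 and 1302 FPKM, against 1091 and 1102 FPKM in its control, where 2 of 23 rose. Genes of dividing cells (35 genes, 1 listed at 0 throughout) summed to 752 and 671 FPKM in +Al C. grandis, against 789 and 731 FPKM in its control, and to 1474 and 1472 FPKM in +Al C. sinensis, against 1009.9 and 973 FPKM in its control, where 6 of 33 tested rose. A list of 20 endodermis genes (2 listed at 0 throughout) summed to between 394 and 527 FPKM, and 1 of 13 rose in each species. The part of these shifts in the results above was not tested. In such bulk samples, fewer cells of a type and less RNA per cell cannot be told apart.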

How the data were processed

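RNA of root tips was sequenced in 8 libraries, 2 for each of 4 groups. According to the study's methods, the authors took out ribosomal reads with Bowtie, aligned what remained to the genome of C. sinensis by TopHat2 and built transcripts with Cufflinks. The submitters' processing notes name the same tools with edgeR 3.0.0 and R 2.1.5. Not given in the sources used here are the build of that genome and versions for the aligners. The deposited values are FPKM, computed by the authors per library. They hold no counts, so reads per gene and counting intervals were not computed, and limma 3.58.1 (R 4.3.3, trend on expression) took the place of the study's edgeR test of counts. A value of 0 is given as listed at 0. The pseudocount of 0.1 FPKM understates changes of low genes. Depth was read relative to the deepest library as the modal ratio between libraries among values below 0.5 FPKM.

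Genes averaging 1 FPKM or more in any group compared were tested, on 4 libraries within a species and on 8 for the difference in response, with Benjamini-Hochberg adjustment over all genes tested. The limits were an adjusted p of 0.05 and, within a species, a log2 change of 1. P-values of the 2 species are not on a like footing. The prior degrees of freedom weigh the spread over all genes, and came to 36.2 for C. grandis and to 3.50 for C. sinensis. P-values within C. grandis therefore rest mainly on that spread, and little on the pools of the gene tested. The fits were tested on simulated data. Genes that share reads with close copies, and genes that overlap on opposite strands, may be uncertain, since the use of strand is not stated.

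The genes and lists were chosen with earlier results of these data known. Named were: every synthesis or signalling gene called, every receptor, EIN2 or EIN3 family gene above 1 FPKM, up to 8 rises and 8 falls of AP2/ERF and other genes per species above 5 FPKM, every gene called in both species, the 5 largest differences in response each way, and the highest gene of each role. Alternatives were rescaling by a median ratio, no filter or 5 FPKM, pseudocounts of 1 and 0.01, 8 libraries in the fit, a replicate block, the adjusted p alone, and each library left out. Rescaling with a +Al C. grandis library left out was added after seeing the data. Marker lists were leaf, root tip patterning, endodermis, dividing cells, and xylem and secondary wall. Coordinates and sequences were not used here. Tables and plots were made with matplotlib 3.10.9, scipy 1.17.1, numpy 2.4.6 and pandas 2.3.3 under Python 3.11.15.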

Additional observations from a re-analysis of the deposited data

Results flagged for a closer look

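For 15 of the genes named above, the response to Al differed between C. grandis and C. sinensis by a test of the difference itself (limma over 8 libraries, log2 change in C. grandis minus that in C. sinensis). The response was lower in C. grandis for 10 of them: Cs9g16820 (-4.49, adjusted p = 0.026), Cs1g04650 (-4.18, 0.0068), Cs5g08360 (-3.39, 0.0001), Cs4g13870 (-2.79, 0.0027), Cs2g05640 (-1.97, 0.0021), Cs3g19420 (-1.97, 0.025), Cs5g33540 (-1.83, 0.00047), XLOC_013075 (-1.71, 0.015), Cs5g29870 (-1.42, 0.015) and Cs4g07040 (-1.12, 0.0079). It was higher in C. grandis for orange1.1t03606 (2.45, adjusted p = 0.0036), orange1.1t02314 (1.27, 0.021), Cs8g12810 (1.26, 0.046), Cs5g01140 (1.20, 0.023) and Cs3g23270 (0.90, 0.035). Of the 15, the responses of Cs2g05640, Cs4g13870, Cs5g08360, Cs5g33540 and orange1.1t03606 were called different under every alternative run.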

How the results depend on the processing

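Of the named genes, 7 of 13 calls in C. grandis, 6 of 11 in C. sinensis and 5 of 15 differences in response held under every alternative run, and none reversed. Some calls were lost without a library while the log2 change stayed close to its value, as for Cs1g23200 in C. grandis. A lost call does not by itself mean a smaller change. With 1 library left out, the genes that rose numbered 1 to 3 in C. grandis and 5 to 7 in C. sinensis, those that fell 8 to 14 and 4 to 5, and the differences 1 to 24 higher and 4 to 22 lower in C. grandis. The 24 came without +Al C. grandis library 1. Of 20 named genes whose response was not called different, 15 were called under at least 1 alternative, most often without that library (10) or after rescaling (8). The count of 3 that rose in C. grandis became 1 without the filter on low values and 1 after rescaling without +Al library 2. With the adjusted p alone, 11 rose and 23 fell in C. sinensis. The 6 differences higher in C. grandis became 16 after rescaling, 10 at 5 FPKM or more, 1 with the replicate block, and 17 and 13 after rescaling without +Al C. grandis library 1 and 2. The cause of these shifts was not tested. Libraries with the same number did not deviate together (r = 0.035 for C. grandis, -0.0075 for C. sinensis). This cannot show whether they were handled together. The replicate block left 1 of the 6 higher and 12 of the 14 lower differences. With 2 libraries in a group and no counts, changes of genes near 1 FPKM were measured least well.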

Other observations

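Some AP2/ERF factors not described above had ranges that did not overlap between the libraries of the 2 species. Levels were not tested between species, because reads of both were mapped to the genome of C. sinensis. Cs4g17880 lay between 1.47 and 2.54 FPKM in the 4 libraries of C. grandis and between 14.6 and 19.8 FPKM in those of C. sinensis. Cs5g25540, described as AP2 domain-containing, did not pass 0.184 FPKM in C. grandis and lay between 1.41 and 2.77 FPKM in C. sinensis. In the other direction, orange1.1t00299 was at 85.8 and 107 FPKM in +Al C. grandis, against 55.0 and 57.1 FPKM in its control, and between 11.6 and 12.4 FPKM in C. sinensis. Its change in C. grandis passed the p limit and not the fold limit (log2 0.77, adjusted p = 0.022 by limma). Cs9g03110 was at 23.9 and 29.8 FPKM in +Al C. grandis, against 17.3 and 21.5 FPKM in its control, and between 3.21 and 5.62 FPKM in C. sinensis. Cs3g07310, described as the factor WRI1, which in Arabidopsis controls fatty acid synthesis in seeds, was at 7.20 and 5.75 FPKM in +Al C. grandis, against 5.63 and 3.65 FPKM in its control, and at 13.1 and 13.3 FPKM in +Al C. sinensis, against 9.19 and 7.97 FPKM in its control (in C. sinensis log2 0.62, adjusted p = 0.0097 by limma, under the fold limit). These genes were chosen after their values were seen.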
